A study of Gallus gallus with 6 samples.

Results

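Immediate early transcription factors are the DNA-binding proteins whose genes a cell switches on first after a growth factor, stretch or stress signal, before any new protein has to be made. They were followed here in cells of somatic type grown from chicken primordial germ cells (PGCs), and in the PGCs themselves, which in the embryo give rise to the gametes. A list of 10 such factors was looked up by gene name in a table of 23873 genes, and 9 of the 10 had exactly 1 row: EGR1, FOS, FOSL2, JUN, JUND, ATF3, KLF2, KLF6 and MYC. IER2 had no such row and was not analysed here. The rule used gene names and no measured value, but the list was drawn up with earlier results of these data known. The 6 samples include no stimulation or time course against which an immediate early response could be checked.

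Sequencing of polyA RNA gave 6 libraries. For 3 of them the source was somatic differentiated PGCs, cells that had attached to the dish and were kept by aspirating those in suspension and growing the rest for some weeks more. The other 3 came from undifferentiated PGCs in suspension. The labels give 1 culture description for both groups: PGCs drawn from embryonic blood and kept in KnockOut DMEM with chicken serum, B-27, GlutaMAX, nucleosides, non-essential amino acids, an antibiotic and antimycotic mix, monothioglycerol, pyruvate, heparin, human FGF2, the ROCK inhibitor H1152 and the myosin inhibitor blebbistatin. Whether the adherent cells were kept in that same mixture is not stated separately, nor are the sex of the embryos, the way adherent cells were harvested, or whether the 3 libraries of a group came from separate embryos or lines. The p-values therefore measure the spread between these libraries, which may be technical. The study asked which pathways become active as PGCs turn into somatic cells.

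The factors belong to 4 families. EGR1 is a zinc finger activator whose gene is switched on through serum response factor (SRF) and its ETS partners of the ELK type when the ERK kinases are active. FOS and FOSL2 pair with JUN or JUND through leucine zippers to form AP-1, and ATF3 is a related zipper protein that mostly represses. KLF2 and KLF6 are zinc finger proteins of the Krüppel-like family. MYC pairs with MAX to drive growth genes, and MYCN and MYCL are its paralogs. FGF2, which is in the medium and is needed for PGC growth, is a known activator of ERK.

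The groups were first checked against their labels. The germ cell RNA helicase DDX4 stood at 144, 201 and 118 TPM in the somatic differentiated libraries, against 546, 476 and 584 TPM in the undifferentiated libraries (each numbered 1 to 3, as in all later lists of values), and 7 of 7 germ cell markers were called lower under the rule given below, against 7.77% of all tested genes. DAZL, an RNA-binding germ cell factor, averaged 334 ± 120 TPM in somatic differentiated and 1270 ± 194 TPM in undifferentiated cells (SD, n = 3). The pluripotency factor NANOG averaged 104 ± 21.3 TPM in somatic differentiated and 341 ± 114 TPM in undifferentiated cells (SD, n = 3). TPM, a relative transcript abundance, is corrected for transcript length and library total, so levels of different genes can be set side by side, but it keeps no record of depth. The 7 germ cell markers summed to 1511 to 2143 TPM in somatic differentiated and 5803 to 6328 TPM in undifferentiated libraries, so germ cell transcripts remained in the somatic differentiated libraries. In bulk RNA, fewer cells of a type and less RNA per cell cannot be told apart. Vimentin (VIM), a mesenchymal filament protein, averaged 23411 ± 4234 TPM in somatic differentiated and 1876 ± 260.5 TPM in undifferentiated cells (SD, n = 3). Of the 6 mesenchymal markers 5 were called higher, VIM among them, and 1 lower, against 13.2% and 7.77% of all tested genes. That 1 was PRRX1, a mesenchymal homeobox factor named after its values were seen, which averaged 7.03 ± 1.75 TPM in somatic differentiated and 20.6 ± 4.51 TPM in undifferentiated cells (log2 change -1.43, limma adjusted p 0.00534). Erythroid markers summed to 1.77 to 1.85 TPM in somatic differentiated and 0 to 0.490 TPM in undifferentiated libraries, with 4 of the 5 matched below 1 TPM throughout. The fifth, the untested HBBA, measured 1.71, 1.73 and 1.77 TPM in somatic differentiated libraries and 0 TPM in each undifferentiated library (named after its values were seen). Leukocyte markers summed to 9.10 to 16.8 TPM in somatic differentiated and 8.48 to 10.2 TPM in undifferentiated libraries. Of the 3 tested, PTPRC and CD74 had a higher mean in somatic differentiated cells and LCP1 a lower one. Each overlapped and was not called. The untested CSF1R averaged 1.54 ± 0.455 TPM in somatic differentiated and 0.104 ± 0.0287 TPM in undifferentiated cells, without overlap. The untested SPI1 also lay higher without overlap, but at or below 0.0659 TPM, and the untested MARCO overlapped (these genes named after their values were seen). Gonadal somatic markers summed to 23.4 to 54.9 TPM in somatic differentiated and 14.6 to 26.9 TPM in undifferentiated libraries. Most of that sum was SOX9, which was not called. FOXL2 was called higher, at 2.11 ± 0.990 TPM in somatic differentiated and 0.181 ± 0.255 TPM in undifferentiated cells. The untested NR5A1 and STAR lay lower in somatic differentiated libraries without overlap, and the untested AMH and WT1 overlapped (these genes named after their values were seen). Endothelial markers summed to 25.0, 98.4 and 36.8 TPM in the somatic differentiated libraries, against 10.4 to 18.9 TPM in undifferentiated libraries. CDH5 was the largest part in each somatic differentiated library, with PECAM1 close behind in library 1 (12.5 against 10.7 TPM). TEK, TIE1 and VWF stayed below 1 TPM. Of the 3 endothelial markers tested, CDH5 was called higher and KDR lower, at 1.49 ± 0.416 TPM in somatic differentiated and 4.91 ± 2.498 TPM in undifferentiated cells (log2 change -1.16, limma adjusted p 0.0454). The third, PECAM1, averaged 6.502 ± 3.97 TPM in somatic differentiated and 5.90 ± 0.841 TPM in undifferentiated cells and was not called (KDR and PECAM1 named after their values were seen). The part of these other cell types in the results that follow was not tested. Undifferentiated library 2 stood somewhat apart: over the tested genes its Pearson correlation with the other two of its group was 0.962 and 0.968, against 0.986 between those (across genes, which are not independent).

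All 9 factors had a higher mean in somatic differentiated cells, and 8 of the 9 had no overlap between the groups. The fit (limma on log2(TPM + 1), over 12996 genes whose mean reached 1 TPM) called a gene at a Benjamini-Hochberg adjusted p under 0.05 together with a change of at least 1 on the log2 scale. EGR1, FOS, MYC, FOSL2 and JUN rose under that rule, which is 5 of 9, and 0 of 9 fell, whereas 13.2% of all tested genes were called higher and 7.77% lower. At an unadjusted limma p under 0.05, 9 of 9 were higher and 0 lower, against 22.5% of all tested genes higher and 28% lower. By adjusted p alone 7 of 9 were higher, against 17.9% of all genes higher and 22% lower. Complete separation with the somatic differentiated values on top held for 8 of 9, against 25% of all genes, and 30.6% of all genes separated the other way. The median change of the 9 factors was 1.24 on the log2 scale, and the median of all tested genes was -0.11. That median lay at -0.01 when libraries were scaled by the median of ratios, which raised the share of higher genes among all calls to 70.4%, against 63.0%. Without undifferentiated library 2 that share was 49.1%, and 4 of the 9 factors were called higher, FOSL2 being the one lost. Of the 17 alternative settings or left-out libraries tried, those that changed the pseudocount, scaling, weights or libraries all kept the 9 factors above 0. Changing the filter, variance model or minimum change, or adding the replicate number, leaves each log2 change as it was, so its sign could not move. With 9 genes that share regulators and were listed with earlier results of these data known, these counts describe the group and were given no p-value of their own.

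**Figure D1:**
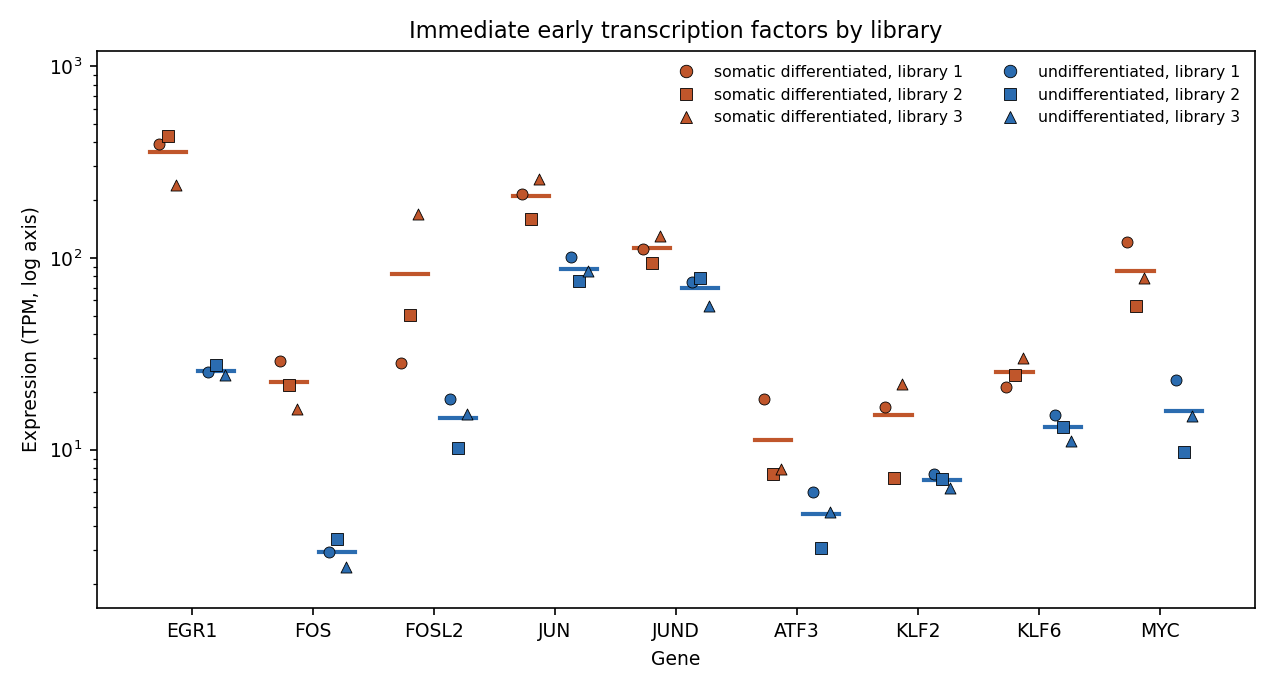
Expression in TPM (log axis) of the 9 immediate early transcription factors in each library, with 3 somatic differentiated libraries to the left of 3 undifferentiated libraries for each gene and a line at each group mean. The groups are separate for every gene except KLF2, whose somatic differentiated library 2 lies at 7.11 TPM among the undifferentiated values, and the distance between groups is widest for EGR1.

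EGR1 showed the widest separation. EGR1 (ENSGALG00000007669, chromosome 13, 18949948 to 18952753, plus strand) stood at 392, 433 and 239 TPM in the somatic differentiated libraries, against 25.3, 27.5 and 24.5 TPM in the undifferentiated libraries. The lowest somatic differentiated value was 8.68 times the highest undifferentiated value. The mean was 354 ± 102 TPM in somatic differentiated and 25.8 ± 1.58 TPM in undifferentiated cells (SD, n = 3), a ratio of 13.8, and the log2 change was 3.69 (SE 0.23, 95% interval 3.15 to 4.22, limma adjusted p 0.000262). By size of increase EGR1 ranked 21 among the 12996 tested genes. Its level stood at the 97.1st percentile of tested genes in somatic differentiated and at the 54.9th in undifferentiated cells.

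The rest of the EGR and SRF circuit moved unevenly. Of 13 listed genes 9 could be tested, and 3 rose, 0 fell and 6 were not called, with a median change of 0.68. Of all tested genes 13.2% were called higher and 7.77% lower. At an unadjusted limma p under 0.05, 5 of the 9 were higher and 0 lower, against 22.5% and 28% of all tested genes. Complete separation held upward for 5 and downward for 1, against 25% and 30.6%. FHL2, among the 3 and named after its values were seen, kept its call under 8 of its 16 alternatives. NAB2, a corepressor that binds EGR proteins and in mammals is itself an EGR target, measured 13.3, 10.4 and 11.1 TPM in somatic differentiated libraries, against 3.36, 3.42 and 4.05 TPM in undifferentiated libraries (log2 change 1.44, limma adjusted p 0.00253). That call was lost with a pseudocount of 5. Its paralog NAB1 was the more abundant corepressor and averaged 85.9 ± 10.1 TPM in somatic differentiated and 75.7 ± 23.8 TPM in undifferentiated cells (SD, n = 3), a change of 0.23 with limma adjusted p 0.495. EGR1 transcripts were thus 3.83, 4.14 and 2.79 times the sum of NAB1 and NAB2 in somatic differentiated libraries, against 0.252, 0.515 and 0.292 times in undifferentiated libraries. The log2 of this ratio differed by 3.40 (exact two-sided permutation p 0.1, the smallest that 3 against 3 can give).

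ELK3, an ETS factor that works with SRF, rose to 86.5 ± 14.7 TPM in somatic differentiated cells, against 21.2 ± 2.08 TPM in undifferentiated cells (SD, n = 3; log2 change 1.97, limma adjusted p 0.000614). SRF itself stood at 46.8, 49.0 and 48.1 TPM in somatic differentiated libraries, against 60.2, 51.3 and 59.1 TPM in undifferentiated libraries. The SRF groups did not overlap, but the change of -0.24 (95% interval -0.54 to 0.06) was not called, with limma adjusted p 0.174. ELK4 and MRTFA, from the same list and named after their values were seen, were not called. Their log2 changes were 1.00 and -0.40 (limma adjusted p 0.0814 and 0.407). The other EGR genes were scarce. EGR2 averaged 3.27 ± 1.03 TPM in somatic differentiated and 1.63 ± 0.432 TPM in undifferentiated cells (SD, n = 3), a change of 0.68 with limma adjusted p 0.0774. EGR3 averaged 4.92 ± 1.64 TPM in somatic differentiated and 5.62 ± 1.17 TPM in undifferentiated cells (SD, n = 3), a change of -0.18 with limma adjusted p 0.622. EGR4 stayed at or below 0.410 TPM in every library and was not tested.

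The AP-1 subunits differed in both level and change. JUN, the main partner of FOS proteins, was the most abundant of the 5 AP-1 transcripts in every library except undifferentiated library 2, where JUND was. JUN (ENSGALG00000010870, chromosome 8, 26714120 to 26715827, minus strand) measured 215, 159 and 257 TPM in somatic differentiated libraries, against 101, 75.7 and 85.6 TPM in undifferentiated libraries. Its values did not overlap between groups, and it rose by 1.24 on the log2 scale (SE 0.20, limma adjusted p 0.00437). JUND (ENSGALG00000043641, chromosome 28, 4077792 to 4078763, plus strand), usually a less inducible JUN protein, measured 111, 94.3 and 131 TPM in somatic differentiated libraries, against 75.0, 78.2 and 56.3 TPM in undifferentiated libraries. The JUND groups did not overlap, but the change of 0.68 (95% interval 0.24 to 1.11) lay below the minimum for a call, with limma adjusted p 0.0245.

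FOS was far scarcer than JUN, with a wider ratio between the groups. FOS (ENSGALG00000028037, chromosome 5, 38430793 to 38433702, plus strand) measured 29.1, 21.8 and 16.4 TPM in somatic differentiated libraries, against 2.92, 3.41 and 2.44 TPM in undifferentiated libraries. The lowest somatic differentiated value was 4.80 times the highest undifferentiated value. The ratio of means was 7.67 and the log2 change 2.55 (SE 0.25, 95% interval 1.95 to 3.15, limma adjusted p 0.000993). In undifferentiated cells FOS was the least abundant of the 9 factors, at the 13.8th percentile of tested genes.

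FOSL2 was decided less firmly, because its somatic differentiated libraries stood far apart. FOSL2, also called FRA2 (ENSGALG00000010036, chromosome 3, 27500695 to 27510879, minus strand), measured 28.4, 50.1 and 169 TPM in somatic differentiated libraries, against 18.5, 10.3 and 15.4 TPM in undifferentiated libraries. The groups did not overlap, but library 3 of the somatic differentiated cells was 5.95 times library 1. The log2 change was 2.05 (SE 0.61, 95% interval 0.62 to 3.48, limma adjusted p 0.0333). Without somatic differentiated library 3 the change was 1.34 (limma adjusted p 0.0344). The call was lost without somatic differentiated library 2 (2.21, adjusted p 0.0647), without undifferentiated library 1 (2.22), library 2 (1.83) or library 3 (2.10), and when genes of low TPM were not filtered out (adjusted p 0.054). Of the other FOS proteins, FOSB stayed at or below 0.385 TPM in every library. FOSL1 and the remaining JUN gene, JUNB, were not analysed here.

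ATF3 was low in both groups. ATF3 (ENSGALG00000049422, chromosome 3, 21942839 to 21967759, minus strand) measured 18.4, 7.43 and 7.94 TPM in somatic differentiated libraries, against 6.04, 3.06 and 4.73 TPM in undifferentiated libraries. The values did not overlap, yet the change of 1.05 (95% interval 0.15 to 1.96) was not called, with limma adjusted p 0.0651. Library 1 of the somatic differentiated cells carried much of it, and without that library the change was 0.67. ATF3 was called under median of ratios scaling (1.14, adjusted p 0.0297), and its adjusted p lay between 0.0195 and 0.154 across the 17 alternatives.

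The summed transcripts of FOS, FOSL2, JUN, JUND and ATF3 came to 401, 333 and 581 TPM in somatic differentiated libraries, against 204, 171 and 165 TPM in undifferentiated libraries. The share of JUN in that sum was 48.5% ± 4.67 in somatic differentiated and 48.7% ± 3.95 in undifferentiated cells (SD, n = 3). The share of JUND was 26.2% ± 3.19 in somatic differentiated and 38.9% ± 6.09 in undifferentiated cells. FOS had 5.54% ± 2.38 in somatic differentiated and 1.64% ± 0.314 in undifferentiated cells. FOSL2 had 7.07%, 15.1% and 29.1% in the somatic differentiated libraries, against 9.07%, 6.01% and 9.34% in undifferentiated libraries, so its share overlapped between groups. FOS family transcripts (FOS, FOSB and FOSL2) were 0.177, 0.285 and 0.479 times those of JUN and JUND in somatic differentiated libraries, against 0.124, 0.0894 and 0.125 times in undifferentiated libraries. The ratio was higher in each somatic differentiated library, by 1.37 in the mean log2 ratio (exact two-sided permutation p 0.1, the smallest possible).

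**Figure D2:**
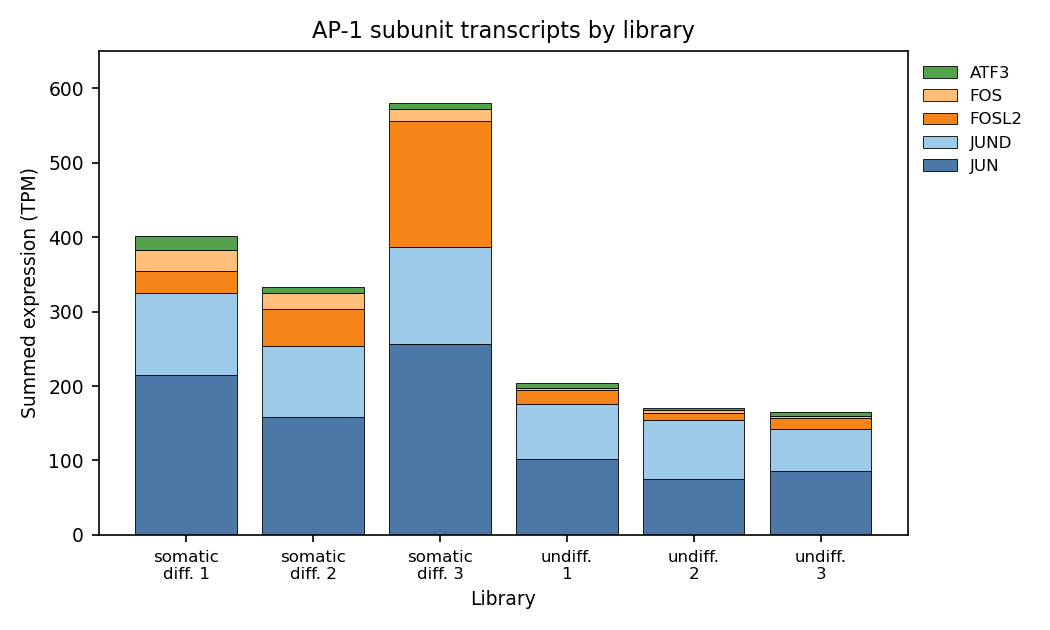
Summed expression in TPM of 5 AP-1 subunit genes in each library, with the somatic differentiated libraries on the left and each coloured segment giving 1 gene. The bars reach 333 to 581 TPM in somatic differentiated and 165 to 204 TPM in undifferentiated libraries, and the FOSL2 segment is largest in somatic differentiated library 3.

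Relatives of the AP-1 subunits have zippers of the same class. Of 20 listed genes 15 were tested, of which 2 rose, 1 fell and 12 were not called, with a median change of 0.70. Both shares are close to those of all tested genes, 13.2% higher and 7.77% lower, so the calls alone do not set these relatives apart. By adjusted p alone 5 of the 15 were higher and 4 lower, against 17.9% and 22% of all tested genes. At an unadjusted limma p under 0.05, 8 were higher and 4 lower, against 22.5% and 28%. Complete separation held upward for 9 and downward for 4, against 25% and 30.6%. MAF, a zipper protein that binds extended AP-1 sites, averaged 56.0 ± 15.9 TPM in somatic differentiated and 7.20 ± 1.16 TPM in undifferentiated cells (SD, n = 3; log2 change 2.77, limma adjusted p 0.000715). BATF3, a partner of JUN proteins known mostly from immune cells, fell to 1.55 ± 0.908 TPM in somatic differentiated cells, against 4.72 ± 0.799 TPM in undifferentiated cells (log2 change -1.21, limma adjusted p 0.0175). The BATF3 call was lost with a pseudocount of 5, without somatic differentiated library 2 and without undifferentiated library 3.

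Neither Krüppel-like member was called. KLF6 (ENSGALG00000033178, chromosome 2, 11821968 to 11830930, minus strand) measured 21.3, 24.5 and 30.2 TPM in somatic differentiated libraries, against 15.2, 13.2 and 11.1 TPM in undifferentiated libraries. Its groups did not overlap, and the change of 0.89 (95% interval 0.41 to 1.37, limma adjusted p 0.0136) lay below the minimum for a call. KLF2, best known as a flow-responsive factor of endothelium (ENSGALG00000003939, chromosome 28, 4484819 to 4487194, minus strand), measured 16.6, 7.11 and 22.0 TPM in somatic differentiated libraries, against 7.47, 7.08 and 6.28 TPM in undifferentiated libraries. Libraries 1 and 3 of the somatic differentiated cells were above every undifferentiated value, and library 2 fell among them. The change of 0.91 was not called (limma adjusted p 0.0978). Without somatic differentiated library 2 it was 1.34 with limma adjusted p 0.0107. The ratio of KLF2 to KLF6 differed by 0.05 on the log2 scale (exact two-sided permutation p 1.0). Without somatic differentiated library 1, 2 or 3 the difference was -0.21, 0.51 or -0.16. For library 2 left out, the exact two-sided permutation p was 0.1, the smallest that 2 against 3 can give.

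Of 10 tested genes in the rest of the Krüppel-like family 3 rose, 1 fell and 6 were not called, against 13.2% of all tested genes called higher and 7.77% lower. The median change of the 10 was -0.20, and 1 lower gene of 10 lies near the share over all genes. At an unadjusted limma p under 0.05, 3 were higher and 2 lower, against 22.5% and 28% of all tested genes. Complete separation held upward for 4 and downward for 3, against 25% and 30.6%. KLF15, among the 3 that rose and named after its values were seen, kept its call under 12 of its 16 alternatives. KLF13 measured 26.5, 25.8 and 25.7 TPM in somatic differentiated libraries, against 2.54, 1.90 and 2.44 TPM in undifferentiated libraries (log2 change 3.04, SE 0.18, limma adjusted p 0.000257). KLF13 was nearly constant within the somatic differentiated group, where the highest value was 1.03 times the lowest. KLF9, a factor induced by steroid and thyroid hormones in mammals, averaged 14.8 ± 6.02 TPM in somatic differentiated and 3.22 ± 1.01 TPM in undifferentiated cells (SD, n = 3; log2 change 1.85, limma adjusted p 0.0084). KLF5, which supports self-renewal in mouse embryonic stem cells, measured 28.9, 36.8 and 29.2 TPM in somatic differentiated libraries, against 131, 40.3 and 104 TPM in undifferentiated libraries. KLF5 fell by 1.36 on the log2 scale (limma adjusted p 0.0371). Among the left-out libraries and filters tried, this call was lost without any 1 of the 3 somatic differentiated libraries, without undifferentiated library 1 or 3, and when low genes were not filtered out. KLF4 was not analysed here.

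MYC changed together with an opposite change of its paralogs. MYC (ENSGALG00000033631, chromosome 2, 139734098 to 139738744, plus strand) measured 121, 56.1 and 78.8 TPM in somatic differentiated libraries, against 23.0, 9.77 and 14.97 TPM in undifferentiated libraries. The lowest somatic differentiated value was 2.44 times the highest undifferentiated value. The ratio of means was 5.37, and MYC rose by 2.36 on the log2 scale (SE 0.37, 95% interval 1.49 to 3.23, limma adjusted p 0.00377). MYCN measured 122, 199 and 144 TPM in somatic differentiated libraries, against 460, 423 and 459 TPM in undifferentiated libraries. It fell by 1.55 on the log2 scale (SE 0.18, limma adjusted p 0.0016). MYCL, the other paralog, fell to 22.3, 21.0 and 23.0 TPM in somatic differentiated libraries, against 51.0, 56.4 and 50.5 TPM in undifferentiated libraries (log2 change -1.22, limma adjusted p 0.00132). These 3 calls held under each of the 17 alternatives tried, of which dropping the minimum change could not end a call.

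The balance within the MYC family therefore differed, as did its total. MYCN transcripts were 1.01, 3.55 and 1.82 times those of MYC in somatic differentiated libraries, against 20.03, 43.3 and 30.7 times in undifferentiated libraries. The difference in the log2 ratio of MYC over MYCN was 4.0 (exact two-sided permutation p 0.1, the smallest possible). MYC made up 45.7%, 20.3% and 32.1% of the summed MYC, MYCN and MYCL transcripts in somatic differentiated libraries, against 4.3%, 2.00% and 2.85% in undifferentiated libraries. The sum itself was 262 ± 15.6 TPM in somatic differentiated and 516 ± 23.7 TPM in undifferentiated cells (SD, n = 3), so the increase of MYC was smaller in TPM than the decrease of MYCN. MYCN was still the most abundant of the family in each library, by a small margin in somatic differentiated library 1.

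MAX, the shared partner of MYC proteins and of their antagonists, averaged 63.7 ± 3.96 TPM in somatic differentiated and 43.3 ± 4.88 TPM in undifferentiated cells (SD, n = 3). Its change of 0.55 had limma adjusted p 0.0191 and lay below the minimum for a call. MXD4 and MXI1, which bind MAX and repress sites that MYC activates, rose. MXD1 and MNT, from the same list and named after their values were seen, were not called. Their log2 changes were 0.22 and -0.58 (limma adjusted p 0.407 and 0.0984). MXD4 averaged 36.1 ± 5.37 TPM in somatic differentiated and 10.9 ± 2.60 TPM in undifferentiated cells (log2 change 1.65, limma adjusted p 0.00239). MXI1 averaged 73.9 ± 8.87 TPM in somatic differentiated and 24.9 ± 6.56 TPM in undifferentiated cells (log2 change 1.56, limma adjusted p 0.00262). Of the 11 tested genes of the MYC and MAX list, 2 rose, 2 fell and 7 were not called, with a median change of -0.32, against 13.2% of all tested genes called higher and 7.77% lower. At an unadjusted limma p under 0.05, 3 were higher and 4 lower, against 22.5% and 28% of all tested genes. Complete separation held upward for 3 and downward for 4, against 25% and 30.6%.

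**Figure D3:**
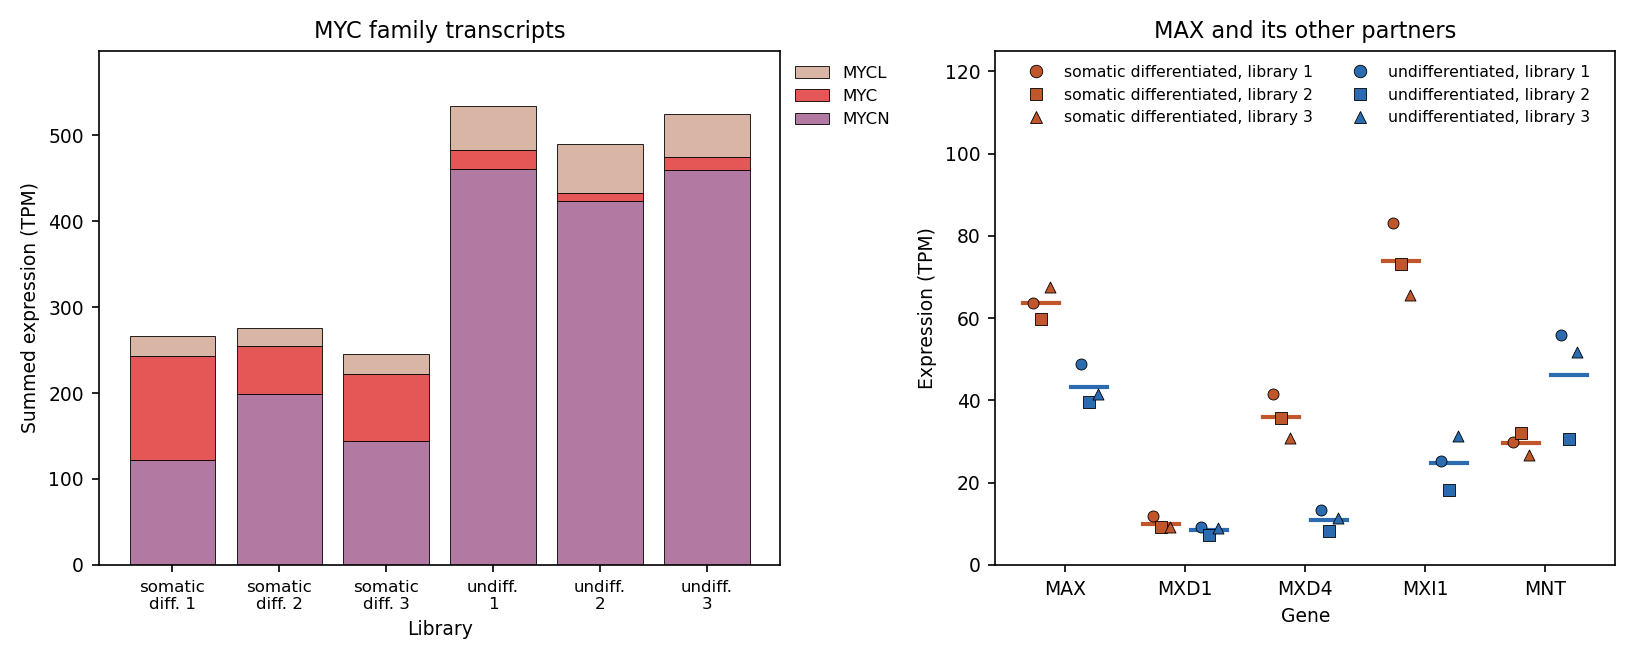
Left, summed expression in TPM of MYCN, MYC and MYCL in each library; right, expression in TPM of MAX and 4 further MAX network genes by library, with lines at group means and somatic differentiated values to the left. The family total is 245 to 276 TPM in somatic differentiated and 489 to 534 TPM in undifferentiated libraries, and MXD4 and MXI1 lie higher in all 3 somatic differentiated libraries.

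Immediate early genes outside the member list, of which 28 were listed, mostly lay on the same side. Of 25 tested genes, 12 rose, 0 fell and 13 were not called, the median change was 1.18, and 22 of 25 lay above 0. Of all tested genes 13.2% were called higher and 7.77% lower, and 44.6% lay above 0. At an unadjusted limma p under 0.05, 18 of the 25 were higher and 0 lower, against 22.5% and 28% of all tested genes. CYR61, the matricellular protein CCN1 and a target of SRF and YAP, averaged 226 ± 32.0 TPM in somatic differentiated and 17.8 ± 2.48 TPM in undifferentiated cells (SD, n = 3; log2 change 3.60, limma adjusted p 0.000146). BHLHE40 is a transcriptional repressor that acts in the circadian and hypoxia responses. It averaged 80.1 ± 14.2 TPM in somatic differentiated and 10.6 ± 0.707 TPM in undifferentiated cells (log2 change 2.79, limma adjusted p 0.000262). BTG2, an antiproliferative gene, rose by 1.69 (limma adjusted p 0.00131).

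Several classic members of the immediate early class did not pass. DUSP1, the phosphatase that switches off stress kinases and ERK, measured 20.6, 21.4 and 10.5 TPM in somatic differentiated libraries, against 9.18, 9.69 and 8.86 TPM in undifferentiated libraries (log2 change 0.79, limma adjusted p 0.0635). IER5, a serum-inducible gene, averaged 62.6 ± 7.37 TPM in somatic differentiated and 33.3 ± 4.16 TPM in undifferentiated cells (SD, n = 3), a change of 0.89 with limma adjusted p 0.00554, below the minimum for a call. NR4A1, an orphan nuclear receptor that many stimuli induce within minutes, stayed at or below 0.461 TPM in every library and was not tested. DUSP1, IER5 and NR4A1 each lay higher in somatic differentiated libraries without overlap, as did 25% of all tested genes. DUSP1 was called without somatic differentiated library 3, and IER5 under array weights and with no minimum change.

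**Figure D4:**
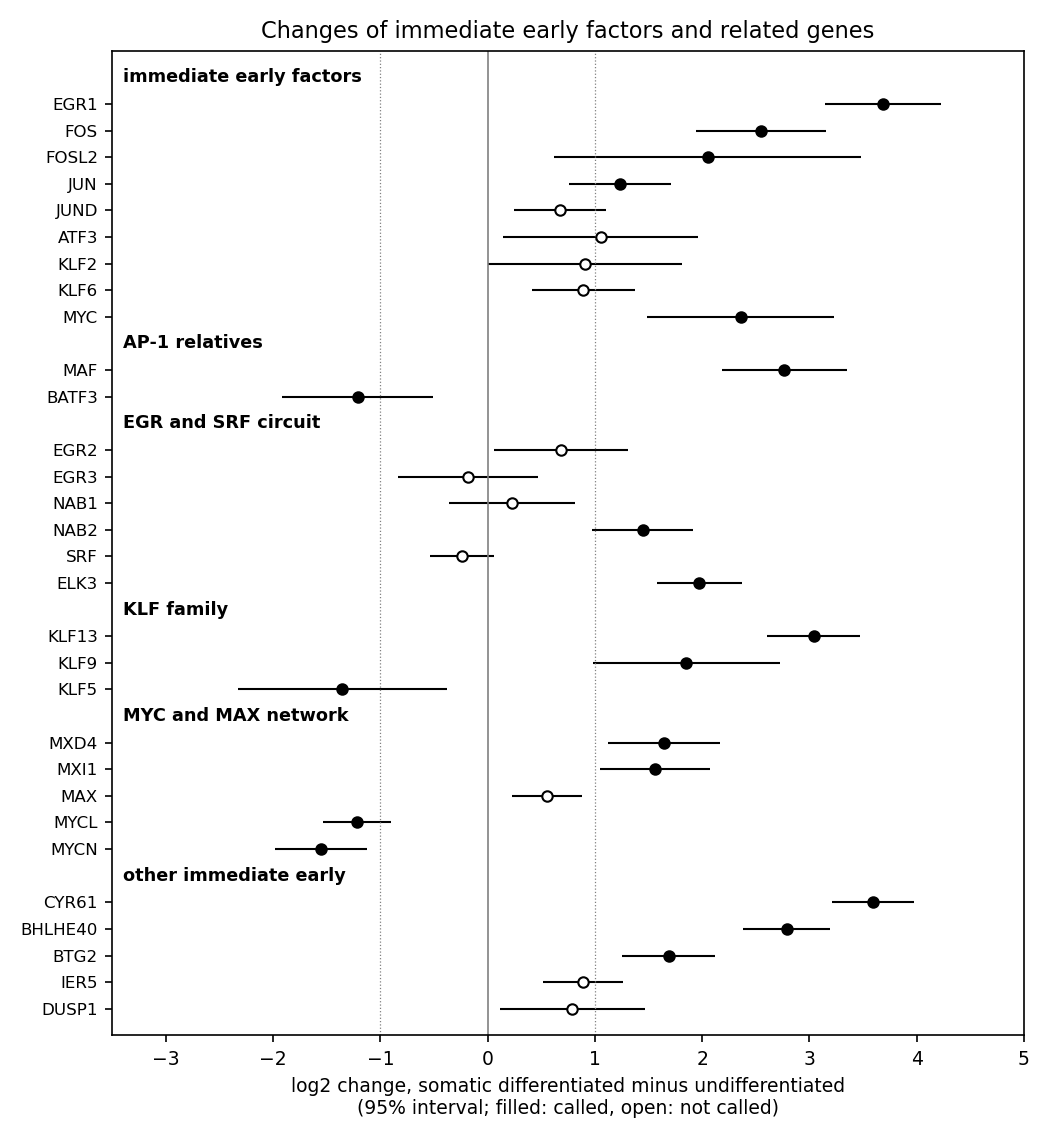
Log2 change of the 9 factors and of named related genes, somatic differentiated minus undifferentiated, with 95% intervals from the limma fit; filled points are called and dotted lines mark a change of 1. EGR1 lies farthest to the right at 3.69, all 9 factors lie above 0, and MYCN, MYCL, KLF5 and BATF3 are the called genes plotted below 0.

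The order of the 9 factors by level differed between the groups. In somatic differentiated cells EGR1 (354 TPM) was first and JUN (210 TPM) second, and their values overlapped across libraries. In undifferentiated cells JUN (87.6 TPM) and JUND (69.8 TPM) came first and overlapped with each other, while EGR1 (25.8 TPM) was next and lay below both in all 3 libraries. Below JUND, each pair of neighbours in the somatic differentiated order overlapped, down to ATF3 as the lowest. In undifferentiated cells EGR1, KLF6 and KLF2 each lay clear of the next gene below, and ATF3 and FOS, the lowest, overlapped. EGR1 made up 39.0% ± 12.9 of the summed TPM of the 9 factors in somatic differentiated and 10.8% ± 1.44 in undifferentiated cells (SD, n = 3).

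The factors varied more among the somatic differentiated libraries than among the undifferentiated ones. The median SD of log2(TPM + 1) over the 9 factors was 0.457 in somatic differentiated and 0.214 in undifferentiated cells, whereas over all tested genes it was 0.206 in somatic differentiated and 0.248 in undifferentiated cells. JUND and MYC were the exceptions, with a smaller SD in somatic differentiated cells. FOSL2 was at the 98.1st percentile of all genes for spread among somatic differentiated libraries, KLF2 at the 93.3rd and ATF3 at the 91.1st. EGR1 was at the 82.9th percentile among somatic differentiated libraries and at the 12.2nd among undifferentiated libraries.

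The somatic differentiated libraries did not rank in 1 order over the factors. Library 3 was highest for FOSL2, JUN, JUND, KLF2 and KLF6 but lowest for EGR1 and FOS. Library 1 was highest for FOS, ATF3 and MYC and lowest for FOSL2 and KLF6. Library 2 was highest for EGR1 and lowest for JUN, JUND, ATF3, KLF2 and MYC. Library 2 also had the group's highest germ cell marker sum, 2143 TPM, against 1511 TPM in library 1 and 1640 TPM in library 3. Its mesenchymal marker sum was also the highest, 28442 TPM, against 20589 TPM in library 1 and 26724 TPM in library 3. VIM, most of that sum, and PRRX1 were highest in library 2, while COL1A1, COL1A2 and TWIST1 were lowest there (named after their values were seen). The part of these differences in the lower values of library 2 was not tested. Among undifferentiated libraries, library 1 was highest for 6 of the 9 factors and library 3 for 0 of 9.

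**Figure D5:**
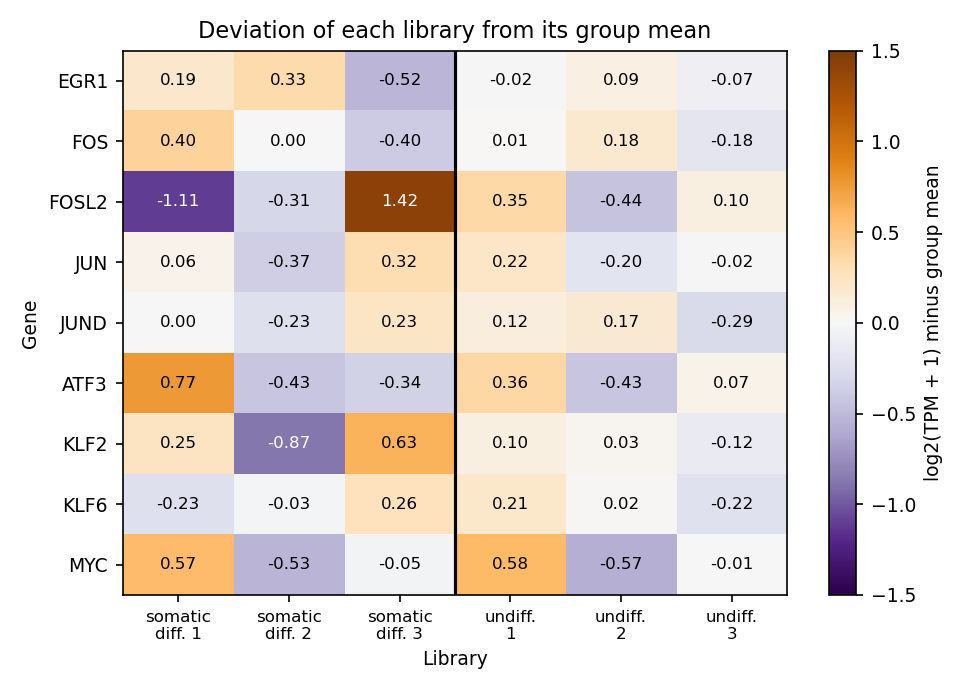
Deviation of log2(TPM + 1) of each library from its group mean for the 9 factors, with somatic differentiated libraries in the left 3 columns. The strongest deviations are those of FOSL2, -1.11 in somatic differentiated library 1 and 1.42 in library 3, and no library is high or low for all 9 factors.

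Heat shock genes, only some of which respond to harsh handling, were read beside these results, and their sum is not a measure of handling. Their sum was 7556 to 9152 TPM in somatic differentiated and 14923 to 15560 TPM in undifferentiated libraries. By adjusted p alone, 10 of 12 were lower and 2 of 12 higher in somatic differentiated cells, against 22% of all tested genes lower and 17.9% higher. With the minimum change 3 were called lower and 1 higher, against 7.77% and 13.2% of all tested genes. The 2 higher by adjusted p were HSPB1 and BAG3, named after their values were seen. BAG3, a cochaperone, averaged 151 ± 14.7 TPM in somatic differentiated and 103 ± 12.6 TPM in undifferentiated cells (SD, n = 3). HSPB1, a small heat shock protein, measured 216, 32.1 and 329.7 TPM in somatic differentiated libraries, against 22.3, 9.07 and 12.7 TPM in undifferentiated libraries, and like KLF2 it was lowest in somatic differentiated library 2. The part of handling in the changes of the immediate early factors was not tested.

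Some rows share genomic ground with other genes. JUN overlaps FGGY, ATF3 overlaps PACC1, MAF overlaps WWOX and FHL2 overlaps C1H2ORF49, each on the opposite strand. MXD1 overlaps HK2 and C22H2ORF42, and MYCN overlaps a long noncoding RNA, also on the opposite strand. The libraries were stranded, but whether the counting used strand is not given in the sources used here, so reads of these pairs may not be separated.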

How the data were processed

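The data were 6 chicken polyA RNA libraries, 3 from somatic differentiated and 3 from undifferentiated PGCs, grouped by title. The authors deposited 1 table of TPM values per gene; each column summed to 1000000, so depth is unknown and no counting interval was computed. The submitters' processing notes name Trimmomatic 0.39, Trim Galore 0.6.6, cutadapt 3.1, STAR 2.7.3a, RSEM 1.3.1 and the build GRCg6a; the annotation release is not given in the sources used here. Coordinates are printed as in the table. All 6 value columns matched sample descriptions, and 0 were left unmapped.

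The test was that of limma 3.58.1 (R 4.3.3), fitted to log2(TPM + 1) with a variance trend and no covariates, over 12996 genes whose mean reached 1 TPM. A call needed a two-sided p under 0.05, adjusted after Benjamini and Hochberg over all tested genes, and an absolute change of at least 1. Changes on this scale understate those of low genes. Ratios were tested by exact permutation. No p-value was computed for a list. In simulated data for this comparison, with 12996 genes and 200 changed by 2 on the log2 scale, 80.5% to 86.5% were recovered with 5 to 11 false calls over 5 runs. The changed genes were drawn only from the more abundant ones, so recovery of low genes or of smaller changes was not measured. Noise was drawn independently for each gene, with the same spread in both groups. Shifts shared by a whole library and unequal spreads were therefore not simulated, and the false calls in the real data may differ.

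The members, the 5 related lists and the markers were chosen with earlier results of these data known. Named genes were the members, a set of close relatives given whatever their result, the 2 largest called changes in each direction of each related list, and DDX4, DAZL, NANOG and VIM as checks; the result of 1 such gene is not reported here. Of 86 listed related genes 74 were matched and 70 tested. No sequence was printed because the reference used holds gene names only. Alternatives changed the pseudocount, filter, scaling, variance model, weights and minimum change, added the replicate number, and left out each library. Python 3.11.15, pandas 2.3.3 and matplotlib 3.10.9 made the tables and plots.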

Additional observations from a re-analysis of the deposited data

How the results depend on the processing

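EGR1, FOS, JUN and MYC were called higher under each of the 17 alternatives, with changes of 3.50 to 3.95, 1.77 to 2.87, 1.08 to 1.42 and 2.07 to 2.65. Dropping the minimum change could not end a call. Over the left-out libraries FOSL2 ranged from 1.34 to 2.61, and it lost its call with no filter (2.05, adjusted p 0.054). ATF3 was called under median of ratios scaling (1.14), array weights (1.19) and the replicate block (1.05, adjusted p 0.0318). With no minimum change JUND (0.68) and KLF6 (0.89) were called. The limma adjusted p of JUND passed 0.05 with the replicate block (0.0628) and without undifferentiated library 3 (0.0806). It also did so without somatic differentiated library 1 (0.071) or library 3 (0.0719). That of KLF6 passed 0.05 without undifferentiated library 3 (0.0587). KLF2 ranged from 0.59 to 1.34 and KLF6 from 0.76 to 1.005 over the left-out libraries; KLF2 was called without somatic differentiated library 2 and KLF6 without library 1. Of the 9 factors, the number called higher stayed within 1.5 times of 5 in every alternative.

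Over all genes, 529 were called lower with a pseudocount of 5 and 2854 with no minimum change, against 1010. AP-1 relatives called higher numbered 4 with a pseudocount of 0.1, 4 under median of ratios scaling and 5 with no minimum change, against 2, and 2 to 4 over the left-out libraries. Those called lower numbered 2, 0 and 0 with pseudocounts of 0.1 and 5 and a filter of 5 TPM, and 4 with no minimum change, against 1, and 0 to 1 over the left-out libraries. In the EGR and SRF circuit 1 gene was called higher with a pseudocount of 5, against 3. KLF family genes called lower numbered 0 with no filter, 0 with the replicate block, which ended the KLF5 call, and 2 with no minimum change, and 0 to 1 over the left-out libraries. The cause was not tested.

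The correlation of same-numbered libraries' deviations was 0.192, 0.0131 and 0.14, and that of differently numbered libraries lay between -0.256 and 0.112. Libraries numbered 1 and 3 correlated best with their own number, and those numbered 2 did not. These values do not settle whether the numbers mark pairs, and the main fit did not pair the libraries. The replicate block gave 1793 higher and 993 lower calls, against 1721 and 1010. Depth could not be judged from TPM, so low values such as those of FOSB, EGR4 and NR4A1 carry an unknown counting error.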
